A study of Mus musculus with 6 samples.

Results

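The imprinted growth genes of the embryonic mouse cortex were followed here in embryos with and without Ybx1, an RNA-binding protein that reads 5-methylcytosine in mRNA. The group was given by symbol as Igf2, H19, Dlk1, Meg3, Peg3, Plagl1, Ndn, Mest, Snrpn and Grb10, that is 10 genes chosen for their imprinting and their part in embryonic growth and neural tissue. The table of 17348 genes held a row for 8 of the 10, and H19 and Meg3 were not analysed here. All 8 passed the filter on low counts, which left 13340 genes for testing. In 5 of the 8 members (Plagl1, Ndn, Mest, Snrpn and Grb10) the genotypes overlapped and no library stood out. Igf2 and Dlk1 were far higher in 1 of the 6 libraries, cKO replicate 3, and Peg3 was higher there by a smaller margin.

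Imprinted genes are transcribed mainly from the maternal or the paternal allele, and the choice is set by DNA methylation laid down in the germ line. Many of the paternally expressed ones promote the growth of the embryo and placenta, and many of the maternally expressed ones restrain it. Igf2 encodes a secreted growth factor that is abundant in embryonic mesenchyme, meninges and choroid plexus, and Dlk1 encodes a transmembrane relative of the Notch ligands found in mesenchymal and endocrine precursors. Peg3, Plagl1 and Ndn encode nuclear regulators that are well known in neural tissue, Grb10 an adaptor that dampens signalling by the insulin and IGF1 receptors, Snrpn a protein of the spliceosome and Mest a membrane protein of the hydrolase fold.

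RNA was sequenced from the cortex at E13.5 in 3 libraries labelled WT and 3 labelled cKO. The cKO embryos carried Ybx1 fl/fl and Nestin-Cre, a driver used to delete a gene in neural progenitors and their progeny. The floxed allele was made in C57BL/6J mice. The WT libraries were from littermate controls without the deletion, and the study elsewhere used Ybx1 fl/fl animals as its controls. It is not stated whether a library came from a single embryo, so p-values measure the spread between these libraries only.

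Library totals lay between 15907491 and 16282929 estimated counts. Ybx1 was measured first as the deleted gene. It reached 1021, 528 and 1220 CPM (counts on a common scale of library size) in WT replicates 1, 2 and 3 and 83.1, 117 and 147 CPM in cKO replicates 1, 2 and 3. The log2 fold change was -3.00 (SE 0.33), with an adjusted p-value of 0.128 in edgeR's quasi-likelihood test. The library labelled WT replicate 2 was thus intermediate, below its own group and above cKO. The tissue label held in each library, as 14 of 14 cortex markers were listed and their summed level was 5820 CPM in cKO replicate 3 and 6138 to 6978 CPM in the other 5 libraries.

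The 250 bases before 2 annotated starts of Igf2 are shown because Igf2 was the member with the largest spread. Igf2 lies on the minus strand of chr7:142650768-142666816 (GRCm38.p6, RefSeq), 72.6 kb from H19, and has several starts. Dlk1 lies on the plus strand of chr12:109452485-109463336, 77.7 kb from Meg3, and its window is given only by its motifs. The sequences run 5′ to 3′ on the strand of the gene, and capitals mark the GC box GGGCGG.
Igf2, start at the 5′ end of the gene, chr7:142666817-142667066, minus strand: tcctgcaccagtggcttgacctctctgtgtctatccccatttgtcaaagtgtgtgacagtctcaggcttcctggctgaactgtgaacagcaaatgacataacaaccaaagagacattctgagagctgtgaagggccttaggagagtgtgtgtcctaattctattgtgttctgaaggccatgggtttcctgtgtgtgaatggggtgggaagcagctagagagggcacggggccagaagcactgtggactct
Igf2, downstream start inside the gene, no base of the window in an annotated exon (GENCODE), chr7:142657497-142657746, minus strand: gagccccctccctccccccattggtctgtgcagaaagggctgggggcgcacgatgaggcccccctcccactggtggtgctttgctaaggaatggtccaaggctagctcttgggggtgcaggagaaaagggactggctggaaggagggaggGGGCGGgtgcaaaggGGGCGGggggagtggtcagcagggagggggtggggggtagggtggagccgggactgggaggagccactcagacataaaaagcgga

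The downstream Igf2 window held 2 GC boxes, and the upstream Igf2 window and the Dlk1 window held none. RefSeq windows were found for all 8 members, 17 in all because several genes have more than 1 start. The GC box, searched as GGGCGG and CCGCCC on both strands, was present in 7 of these 17 windows, belonging to 4 members, and in 32.7% of all 32851 windows of the same length. The palindrome GGGGCCCC, part of the motif bound by Plagl1, was present in 1 window, that of Peg3, and in 0.889% of all windows. Of the pair that was high in the same library, Igf2 had the box and Dlk1 did not. These are matches of letters and were not tested as binding sites.

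The members differed widely in level, which can be compared between genes only per transcript length, here as TPM in WT. Ndn was the highest at 425 ± 28.3 TPM (SD, n = 3), ranking 305 of the 17348 genes listed. Grb10 followed at 269 ± 24.8 TPM, Plagl1 at 206 ± 4.85 and Mest at 187 ± 27.8. The WT libraries of Plagl1 (201 to 211 TPM) and Mest (156 to 209 TPM) overlapped, so these neighbours in the order did not differ beyond their spread. Snrpn reached 85.9 ± 9.60 TPM and Peg3 45.2 ± 0.715 TPM. Igf2 at 15.2 ± 3.50 TPM and Dlk1 at 4.90 ± 1.84 TPM were the lowest, with ranks of 8433 and 10723. In cKO replicate 3 the order changed, since Igf2 stood at 175 TPM, above Snrpn at 79.1 and Peg3 at 73.7 TPM, and Dlk1 at 37.6 TPM.

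Igf2, the secreted growth factor, gave 28.3, 17.8 and 19.9 CPM in WT replicates 1, 2 and 3 and 24.6, 19.9 and 262 CPM in cKO replicates 1, 2 and 3. The first 5 libraries overlapped fully between genotypes, and cKO replicate 3 stood at 9.27 times the highest of them. These values rested on 287 to 450 counts in the 5 libraries and on 4342 counts in cKO replicate 3. The WT mean was 21.996 ± 5.54 CPM and the cKO mean 102 ± 138 CPM (SD, n = 3 each), so that the SD in cKO exceeded its mean. The log2 fold change was 2.22 (SE 0.93, 95% interval 0.073 to 4.36), with an unadjusted edgeR p-value of 0.0443 that became 0.99995 after adjustment. Without cKO replicate 3 the log2 fold change was 0.020 (SE 0.21, 95% interval -0.46 to 0.50).

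Dlk1, the Notch ligand relative, gave 5.21, 3.35 and 2.75 CPM in WT replicates 1, 2 and 3 and 2.62, 6.02 and 30.7 CPM in cKO replicates 1, 2 and 3. The lowest and the highest of the 6 libraries were both cKO, and cKO replicate 3 stood at 5.10 times the highest of the others. Its counts were low in the 5 libraries, between 42 and 96, against 509 in cKO replicate 3. The log2 fold change was 1.80 (SE 0.80, 95% interval -0.058 to 3.66), and edgeR's adjusted p-value was 0.99995. Without cKO replicate 3 it was 0.20 (SE 0.39, 95% interval -0.70 to 1.09). The 5 remaining libraries still differed 2.30-fold between the highest and lowest, and the interval spans changes in both directions.

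Peg3, a zinc finger protein of chr7:6703892-6730462, gave 180, 191 and 188 CPM in WT and 180, 182 and 299 CPM in cKO replicates 1, 2 and 3. In the first 5 libraries the highest value was 1.07 times the lowest, and cKO replicate 3 stood at 1.56 times the highest of them. The log2 fold change was 0.24 (SE 0.19) and turned to -0.046 (SE 0.080, 95% interval -0.23 to 0.14) without that library. Its 2 imprinted neighbours went different ways in cKO replicate 3. Zim1, another zinc finger gene 7.4 kb away, reached 18.6 CPM there against 2.44 to 3.74 CPM in the other 5 libraries. Usp29, a ubiquitin protease gene whose start lies 97 bases from that of Peg3, gave 25.2 CPM there against 23.3 to 32.9 CPM. The counting is not stated to use strand, and Peg3 and Usp29 are transcribed in opposite directions without overlap of the annotated genes.

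**Figure D1:**
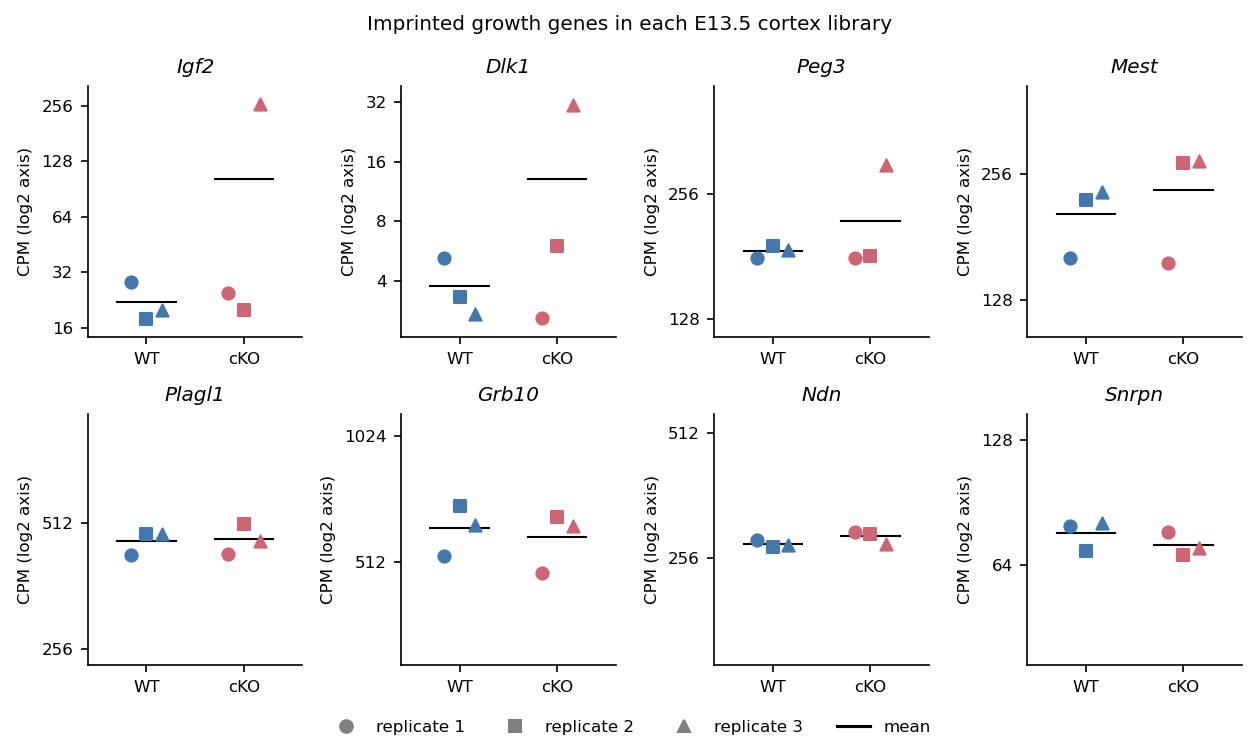
Level of each of the 8 listed members in CPM (log2 axis, each panel with its own range) in the 3 WT (blue) and 3 cKO (red) libraries. The shape of a point gives the replicate number and the line the mean of 3. Igf2 and Dlk1 have 1 point far above the rest, cKO replicate 3 at 262 and 30.7 CPM, and Peg3 has the same point at 299 CPM, whereas the points of the other 5 members overlap between genotypes.

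A gene was counted as raised in a library where its CPM was at least 2 times the highest of the other 5 libraries, a description with no test. In cKO replicate 3 this held for 2 of the 8 members, Igf2 and Dlk1, beside 227 of the 13340 genes tested, or 1.7%. The filter removed genes with counts almost only in cKO replicate 3, such as Krt5 and Twist2, so this share leaves them out. That library had 16309 genes with a count, against 15685 to 15765 in the others. With a limit of 1.5 times Peg3 joined them, making 3 of 8 beside 2.95% of all genes, and with a limit of 4 times Igf2 and Dlk1 remained beside 0.555%. Dlk1 at 5.10 times was the member just inside the limit of 2 and Peg3 at 1.56 times the member just outside. In each of the other 5 libraries 0 members were raised at a limit of 2 times, beside 0.0075% of all genes in WT replicate 1, 0% in WT replicates 2 and 3 and 0.015% in cKO replicates 1 and 2. The high values of Igf2 and Dlk1 were thus found in the single cKO library that stood apart, and were not shared by the other 2 cKO libraries.

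That library also held transcripts of tissue outside the neural cortex. The summed level of 14 mesenchyme and meninges markers was 754 CPM in cKO replicate 3 against 43.1 to 70.3 CPM in the other 5 libraries, and 11 of the 14 were raised there. In marker lists a raised gene also needed at least 10 counts in cKO replicate 3. Genes under the filter were included, as 9 of these 14 and 3 of the 10 epidermis markers were tested. The share of tested genes above therefore does not match these counts. Col3a1, a fibrillar collagen, gave 181 CPM against 3.25 to 4.52 CPM, and Twist2, a mesenchymal transcription factor, gave 353 counts against 0 counts in each of the 5 libraries. The exceptions were Foxc1 at 1.09 CPM against 0.867 to 2.51 CPM, Foxd1 at 0.362 CPM against 0.186 to 0.691 CPM and Prrx1 at 58.1 CPM against 26.1 to 41.7 CPM. The list mixes genes of mesenchyme and of meninges, so its sum does not tell these tissues apart. A rise of meninges transcripts was not tested. The sum of 10 epidermis markers was 296 CPM against 3.01 to 3.81 CPM, and 10 of the 10 were raised, with Krt5, a keratin of basal epidermis, at 130 CPM against at most 0.063 CPM.

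Other sources of non-neural RNA moved little with it. Muscle markers summed to 2.47 CPM in cKO replicate 3 against 1.94 to 2.95 CPM in the other libraries (8 of 10 markers, Myod1 and Myog were not analysed here). Cartilage markers summed to 160 CPM against 164 to 211 CPM, mostly from Col2a1 at 126 CPM against 131 to 176 CPM. Acan, Matn1, Matn4 and Cnmd reached at most 0.434 CPM in any library, so this sum says little about cartilage itself. Erythroid markers summed to 690 CPM against 641 to 1119 CPM. Choroid plexus markers summed to 5.07 CPM against 2.0 to 6.52 CPM. Ttr, their defining transcript, had 0 to 2 counts in every library, and Clic6 was raised in cKO replicate 3 at 0.664 CPM against 0 to 0.314 CPM. Endothelial and pericyte markers summed to 158 CPM against 108 to 156 CPM and microglia and macrophage markers to 37.5 CPM against 22.9 to 36.9 CPM, so that both were slightly above the other libraries. Mrc1, a macrophage receptor, was the microglia and macrophage marker raised there, at 6.998 CPM against 0.875 to 2.64 CPM. Igf2 and Dlk1 therefore had their high values in the library with the raised mesenchyme and epidermis transcripts. The part of those tissues in these values was not tested. In bulk tissue, fewer cells of a type and less RNA per cell cannot be told apart.

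**Figure D2:**
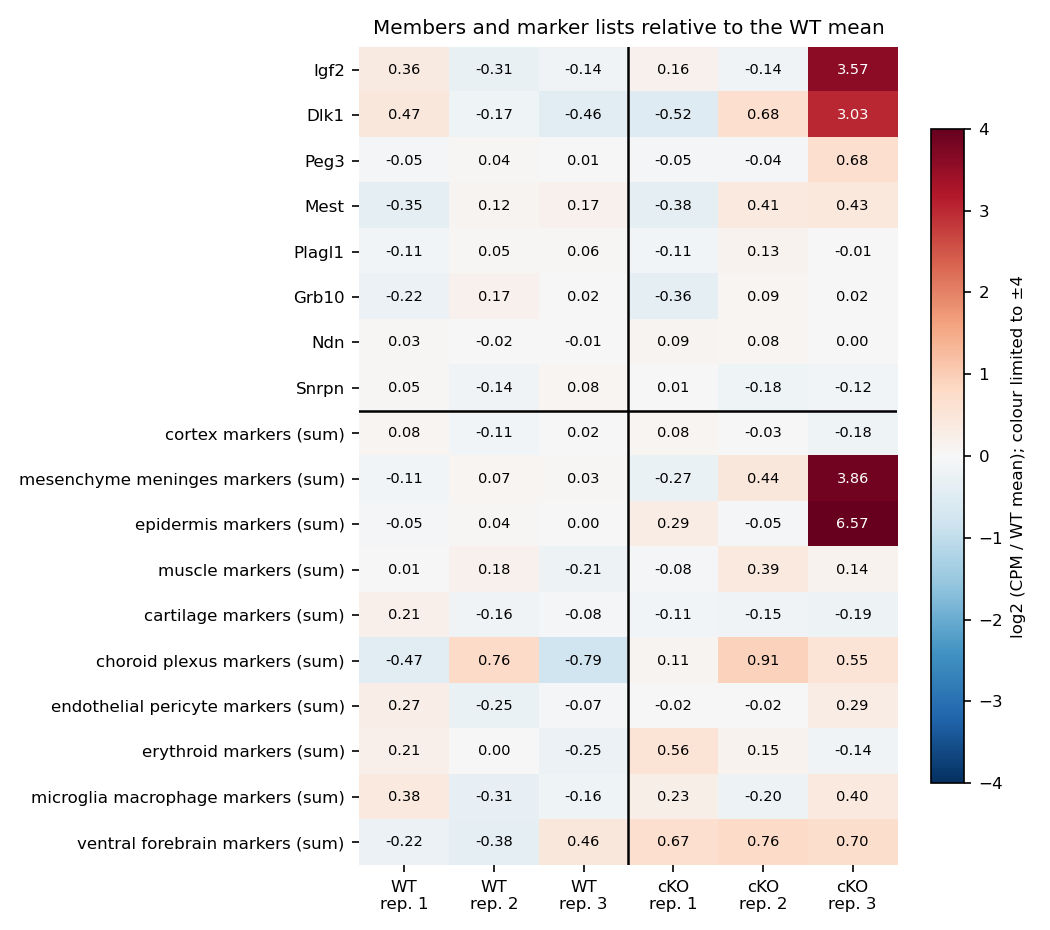
Level in each of the 6 libraries relative to the WT mean, as log2 of the CPM ratio, for the 8 members (upper rows) and for the summed CPM of 10 marker lists (lower rows). Red is above and blue below the WT mean, and each cell gives its value. The last column, cKO replicate 3, has 3.57 for Igf2 and 3.03 for Dlk1 beside 3.86 for mesenchyme and meninges and 6.57 for epidermis markers.

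The genes most like Igf2 and Dlk1 over the 6 libraries were sought among 145 genes outside the group with a mean of at least 10 CPM and a highest value of at least 2 times the lowest. The measure was the root mean square difference of log2 CPM after each gene was centred. For Igf2 the nearest were Cnn2 (0.374), Ahnak (0.410), Anxa2 (0.422), S100a11 (0.455) and Lgals1 (0.499). The same 5 genes were the nearest of Dlk1, led by Anxa2 at 0.378. Anxa2, which encodes a calcium-dependent membrane-binding protein, gave 8.24 to 12.2 CPM in the first 5 libraries and 80.3 CPM in cKO replicate 3. Likeness over these libraries was set by the last one, since all 5 genes were high in that library. All 5 met the limit of 2 times through it, and Cnn2, S100a11 and Lgals1 met the limit of 10 CPM only through it. In the other 5 libraries these gave 4.46 to 7.16, 5.28 to 7.44 and 3.39 to 6.21 CPM. The filter thus favoured genes high in cKO replicate 3, and the likeness is a description with no test.

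Of the members that did not stand out in cKO replicate 3, Mest varied most. Mest gave 161, 222 and 232 CPM in WT replicates 1, 2 and 3 and 157, 272 and 276 CPM in cKO replicates 1, 2 and 3. The low library of each genotype was replicate 1, and the genotypes overlapped, with a log2 fold change of 0.20 (SE 0.22, 95% interval -0.32 to 0.71). Its counts were not whole numbers in any of the 6 libraries, so part of its reads was assigned in fractions. Its neighbour Copg2 overlaps its end on the opposite strand and gave 87.9 to 113 CPM.

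Grb10, the brake on insulin and IGF1 receptor signalling, gave 529, 696 and 627 CPM in WT replicates 1, 2 and 3 and 483, 657 and 624 CPM in cKO replicates 1, 2 and 3. Each cKO library lay slightly below the WT library of the same number, yet the genotypes overlapped, with a log2 fold change of -0.070 (SE 0.14, 95% interval -0.40 to 0.26). Plagl1, a zinc finger transcription factor, gave 431, 482 and 484 CPM in WT and 432, 511 and 464 CPM in cKO. Its log2 fold change was 0.0097 (SE 0.091, 95% interval -0.20 to 0.22).

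Ndn, or necdin, a protein of postmitotic neurons, was the steadiest member, with a highest value of 1.09 times the lowest over the 6 libraries. It gave 284, 273 and 276 CPM in WT replicates 1, 2 and 3 and 296, 293 and 277 CPM in cKO replicates 1, 2 and 3. cKO replicates 1 and 2 lay above all WT libraries and cKO replicate 3 lay within them. The log2 fold change was 0.058 (SE 0.066, 95% interval -0.094 to 0.21), and 0.086 (SE 0.081) without cKO replicate 3. Its imprinted neighbours Magel2, 27.1 kb away, and Mkrn3, 67.7 kb away, gave 27.9 to 39.0 CPM and 12.5 to 13.3 CPM over the 6 libraries. The genotypes overlapped in Magel2, and in Mkrn3 all cKO libraries were above all WT libraries by a small step, with a log2 fold change of 0.062 (SE 0.090).

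Snrpn, which encodes a spliceosomal protein abundant in neurons, gave 79.4, 69.4 and 80.7 CPM in WT and 76.9, 67.6 and 70.3 CPM in cKO replicates 1, 2 and 3. The genotypes overlapped, with a log2 fold change of -0.095 (SE 0.084, 95% interval -0.29 to 0.0998). Snrpn shares its transcript with Snurf, the counts of both were not whole numbers, and how the reads were split between them is uncertain. Snurf itself gave 41.5 to 45.6 CPM in WT and 40.5 to 46.2 CPM in cKO.

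Read over the whole group, the genotype comparison asked whether imprinted growth genes rise or fall when Ybx1 is deleted. At an adjusted p-value under 0.05 in the edgeR test, 0 of the 8 members were higher and 0 were lower, as 0% of all 13340 genes passed in either direction. Even the deleted gene, with a log2 fold change of -3.00, did not pass (adjusted p-value 0.128 in the same test). The 0 members passing therefore do not show that the members were unchanged. At an unadjusted p-value under 0.05 there was 1 member, Igf2, beside 3.57% of all genes. The same count was 0 with DESeq2 (2.55% of all genes), which gave no p-value for Igf2, 0 with limma-voom (3.34%) and 0 with limma on TPM (3.11%). Without cKO replicate 3 it was 0 beside 2.43% of all genes. Without the library labelled WT replicate 2 it was also 0 beside 3.04%, with a lowest member p-value of 0.0940 in edgeR's test across all genes.

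The genotypes were fully apart for 0 of the 8 members, where every cKO library was above every WT library in 4.21% of all genes and below in 4.83%. Without cKO replicate 3 this count was 1, Ndn, with cKO above WT, where 7.68% of all genes were above and 7.98% below. The median log2 fold change of the 8 members was 0.13, with 6 positive and 2 negative, against 0.0019 over all genes tested. Without cKO replicate 3 the median was 0.018, with 5 positive and 3 negative, against 0.0046 over all genes.

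**Figure D3:**
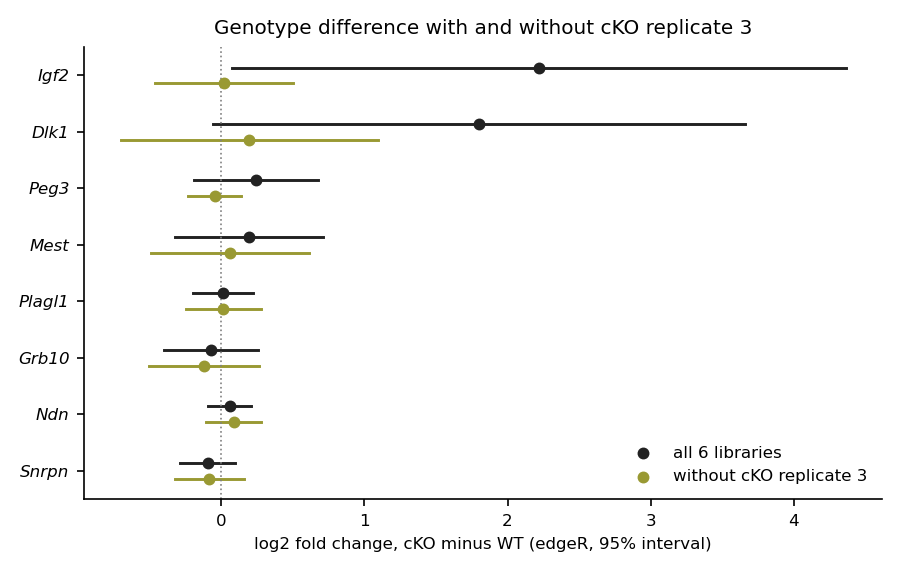
Log2 fold change of cKO minus WT for the 8 members, with 95% intervals from edgeR, in all 6 libraries (black) and without cKO replicate 3 (olive). The estimates of Igf2 and Dlk1 drop from 2.22 and 1.80 to 0.020 and 0.20 when that library is left out. The other 6 members change less, with Peg3 going from 0.24 to -0.046 and Mest from 0.20 to 0.061.

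Levels were also compared between replicate numbers, with no test. Both libraries numbered 1 were the lowest of the 6 for 4 of the 8 members (Peg3, Plagl1, Mest and Grb10), where this held for 20% of all genes, and were the highest for 0 members against another 20%. Peg3 met this only narrowly, at 179.7 and 179.8 CPM against 181.6 CPM in cKO replicate 2. Both libraries numbered 2 were the lowest for Snrpn (6.63% of all genes) and the highest for Grb10 (11.6%). Both libraries numbered 3 were the lowest for 0 members (4.41%) and the highest for 0 members (3.88%). The study sequenced in 3 batches and does not tie a library to a batch, so whether a number marks a batch is unknown, and its part in these values was not tested. For Mest the gap between the numbers, 157 and 161 CPM against 222 to 276 CPM, was larger than any gap between genotypes of the same number.

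**Figure D4:**
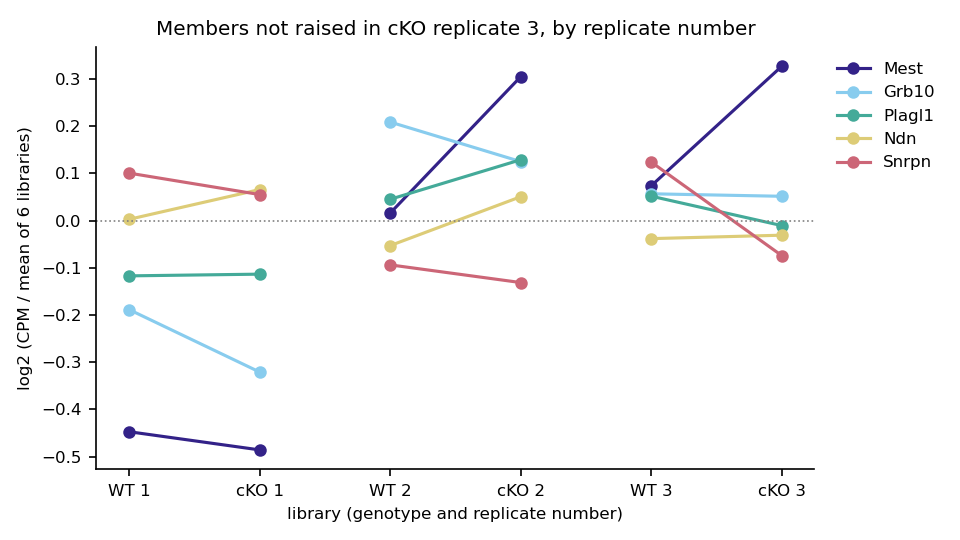
Log2 of the CPM over the mean of 6 libraries for the 5 members that did not stand out in cKO replicate 3, with the 2 libraries of each replicate number joined by a line, WT on the left. Mest, Grb10 and Plagl1 are lowest in both libraries numbered 1, and Mest is higher in cKO than in WT at numbers 2 and 3.

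Other imprinted genes were set beside the group from a list of 44, of which 38 had a row and 31 were tested. None passed edgeR's adjusted threshold in either direction (0 of 31), and by unadjusted p-value 0 were higher and 2 were lower in cKO, beside 234 higher and 242 lower of all 13340 genes (3.57% in all). Their median log2 fold change was -0.041, with 12 positive and 19 negative. Zdbf2, a zinc finger gene expressed from the paternal allele, gave 99.1, 104 and 95.8 CPM in WT and 87.0, 86.8 and 86.2 CPM in cKO. The genotypes were fully apart, with a log2 fold change of -0.20 (SE 0.061) that did not pass after adjustment. Usp29, the neighbour of Peg3, had a log2 fold change of -0.28 (SE 0.12), with 31.2 to 32.9 CPM in WT and 31.1, 23.3 and 25.2 CPM in cKO replicates 1, 2 and 3. Its genotypes were also apart, though cKO replicate 1 was only just under the lowest WT library.

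Of the 31 tested genes of the same list, 2 were raised in cKO replicate 3, beside 1.7% of all genes tested. Slc38a4, an amino acid transporter known from placenta and liver, gave 9.35 CPM there against 0.502 to 1.24 CPM, a ratio of 7.55, and Zim1 had a ratio of 4.98. Rtl1, in the same imprinted domain as Dlk1 and 101.6 kb away, gave 32.0 CPM in cKO replicate 3 against 23.7 to 33.8 CPM. Cdkn1c, a maternally expressed inhibitor of the cell cycle, gave 105 CPM against 87.3 to 126 CPM. By TPM the highest of the list were Nnat at 2310, Gnas at 1404, H13 at 139, Cdkn1c at 138 and Inpp5f at 100.3 (mean of 6 libraries). Nnat, a small membrane protein of neural tissue, gave 886 to 1058 CPM in WT and 1003 to 1211 CPM in cKO. Gnas, which encodes a G protein subunit, gave 988 to 999 CPM in WT and 960 to 1087 CPM in cKO. Dio3, at the far end of the Dlk1 domain, did not pass the filter and was therefore not among the genes counted, but it too was over 2 times higher in cKO replicate 3, at 1.63 CPM against 0.126 to 0.620 CPM.

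**Figure D5:**
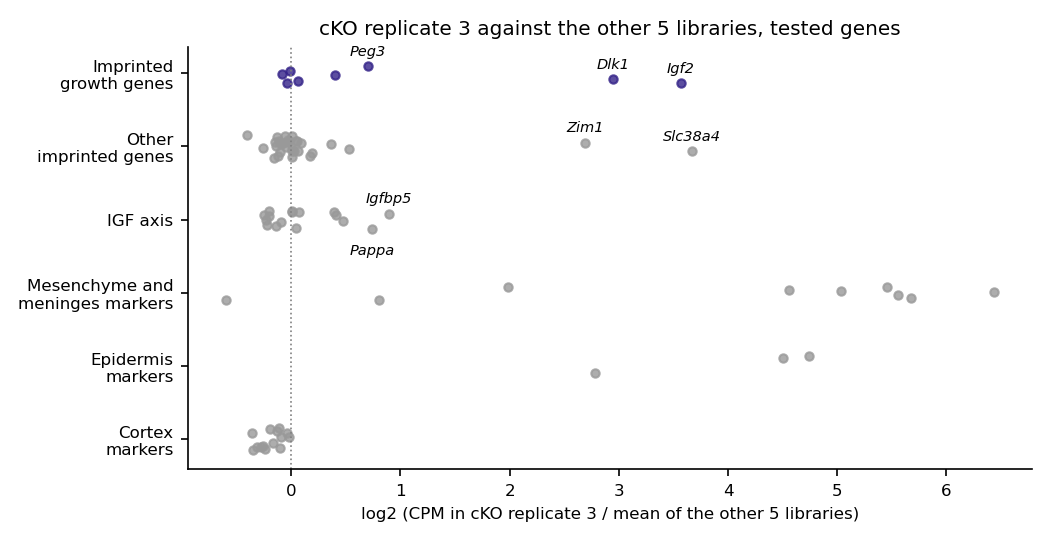
Log2 of the CPM in cKO replicate 3 over the mean of the other 5 libraries, 1 point for each tested gene of 6 lists (vertical scatter within a list has no meaning). Igf2, Dlk1, Slc38a4 and Zim1 lie to the right with most mesenchyme, meninges and epidermis markers, whereas the cortex markers lie near or below 0, as do most other imprinted and IGF axis genes. Igfbp5 and Pappa, at 1.86 and 1.67 times the mean of the other libraries, lie between.

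The genes that receive or limit the IGF2 signal were followed in a list of 22, of which 21 had a row and 16 were tested. None passed edgeR's adjusted threshold (0 of 16), by unadjusted p-value 1 was higher and 1 was lower in cKO (3.57% of all genes in either direction), and the median log2 fold change was -0.023, with 7 positive and 9 negative. The genotypes overlapped in all 3 receptors. Igf1r, which transmits the signal, gave 205 to 227 CPM in WT and 195 to 232 CPM in cKO. Igf2r, an imprinted receptor that removes IGF2, gave 130 to 148 CPM in WT and 129 to 136 CPM in cKO. Insr gave 125 to 154 CPM in WT and 116 to 136 CPM in cKO.

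Irs2, an adaptor below these receptors, gave 40.1, 36.4 and 39.3 CPM in WT and 33.2, 31.1 and 30.7 CPM in cKO. Every cKO value was under every WT value, with a log2 fold change of -0.28 (SE 0.081) that did not pass after adjustment, and -0.26 (SE 0.10) without cKO replicate 3. Igfbp4, a secreted binding protein, gave 58.4, 47.0 and 57.1 CPM in WT and 63.4, 61.2 and 79.8 CPM in cKO. Every cKO value was over every WT value, with cKO replicate 3 the highest. Its log2 fold change of 0.33 (SE 0.13) became 0.20 (SE 0.11) without that library. Irs1, the related adaptor, gave 89.4 to 102 CPM in WT and 87.4 to 91.8 CPM in cKO.

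Some genes of the IGF axis, binding proteins among them, were higher in cKO replicate 3 than in the other libraries. Igfbp5 gave 236 CPM there against 100.4 to 150 CPM in the other 5 libraries, 1.57 times the highest, and Igfbp2 gave 229 CPM against 153 to 191 CPM. Pappa, a protease that cuts binding proteins, gave 7.66 CPM against 3.31 to 6.59 CPM. Igf1, the second ligand, did not pass the filter and gave 1.93 CPM in cKO replicate 3 against 0.125 to 0.440 CPM. Also under the filter, Grb7 gave 2.17 CPM there against 0 to 0.125 CPM and Irs4 0.965 CPM against 0.125 to 0.503 CPM. Igfbp1 and Igfbp6 reached at most 0.188 CPM in any library. By TPM the highest of the axis were Igfbp2 at 392, the RNA-binding protein genes Igf2bp2 at 106 and Igf2bp3 at 65.4, Igfbp4 at 68.6 and Igfbp5 at 54.5 (mean of 6 libraries). Igf2bp2 gave 161 CPM in cKO replicate 3 against 173 to 194 CPM and Igf2bp3 gave 126 CPM against 121 to 135 CPM, so the RNA-binding proteins named for Igf2 were not raised where Igf2 was.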

How the data were processed

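Expression was measured by RNA-seq of mRNA libraries in 6 samples, grouped by the genotype in GEO's labels. The authors deposited estimated counts per gene, unscaled, of which 10.9% held fractions. TPM, which the authors deposited beside them, relates each gene to its length and to a sum common to all libraries. FPKM, also deposited, was not used. The submitters' processing notes name HISAT2 2.2.1, Bowtie2 2.4.5, RSEM 1.3.1 and the builds GRCm38 and mm10, without saying which step used which. Use of strand in counting is not given in the sources used here. Another 6 columns of averages were not used.

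Counts were rounded, genes were kept by filterByExpr (minimum count 10, minimum total 15), and library sizes were scaled by TMM (factors 0.987 to 1.03). edgeR 4.0.16 (glmQLFit and glmQLFTest, R 4.3.3) compared cKO with WT with genotype as the only term, and p-values were adjusted after Benjamini and Hochberg over all 13340 genes, with a threshold of 0.05. The common dispersion was 0.0169. CPM are counts over the TMM-scaled total of the tested genes, and 0 counts allow up to 3 counts of a library, 0.181 to 0.188 CPM, which covers counting error only. The test was tested on simulated data. Promoter windows, gene positions and gene names are from RefSeq, GRCm38.p6.

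The members and lists were chosen with earlier results of these data known. The genes named are all members, Ybx1, and from the other imprinted genes and the IGF axis those that passed, those raised in 1 library, the 5 with the lowest p-values and the 5 with the highest mean TPM, and the 5 nearest genes of each member whose highest CPM was at least 2 times its lowest. Genomic neighbours of members, marker genes that were exceptions, receptors and genes under the filter were named after their values were seen. The alternatives changed the scaling (RLE or upper quartile), the filter (none, or 10 counts in all libraries) or the test (DESeq2 1.42.0, or limma 3.58.1 with voom or on log2(TPM + 1)), or used the replicate number as a block, each library left out, both doubted libraries left out, and limits of 1.5 and 4 times and TPM for genes raised in 1 library.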

Additional observations from a re-analysis of the deposited data

How the results depend on the processing

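Counts of members, of other imprinted genes and of IGF axis genes at an adjusted p-value under 0.05 were 0 in each direction under all 15 alternatives. Over all genes, 0 higher and 0 lower became 2 and 2 with DESeq2, 1 and 1 with the replicate number as a block and 1 and 1 without both WT replicate 2 and cKO replicate 3, and leaving out 1 library gave 0 to 1 in each direction. Signs turned for Igf2 without both of those libraries (-0.11), for Peg3 without cKO replicate 3 (-0.046) and without both (-0.025), for Plagl1 without WT replicate 1 (-0.040) or cKO replicate 2 (-0.058), and for Grb10 without the library labelled WT replicate 2 (0.025) or cKO replicate 1 (0.061). The cause was not tested. Dlk1, Ndn and Mest stayed positive and Snrpn negative in all 15. Leaving out 1 library gave 0.020 to 2.70 for Igf2, 0.20 to 2.30 for Dlk1, -0.046 to 0.38 for Peg3, 0.054 to 0.42 for Mest, -0.058 to 0.073 for Plagl1, 0.046 to 0.086 for Ndn, -0.16 to -0.055 for Snrpn and -0.17 to 0.061 for Grb10.

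The members with an unadjusted p-value under 0.05 were Igf2 and Dlk1 with no filter (3.75% of all genes) and without cKO replicate 2 (4.27%). Without cKO replicate 1 they were Mest, Igf2 and Dlk1, where 7.81% of all genes had such a p-value. They were 0 without WT replicate 1 (3.15% of all genes), without the library labelled WT replicate 2 (3.04%) and without WT replicate 3 (1.77%). Ybx1 stayed lower in all 15, with log2 fold changes of -3.49 to -2.75.

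Same-numbered libraries had correlations of their deviations of 0.41, 0.31 and -0.020 for numbers 1, 2 and 3. Since 1 of the 3 was not above 0.1 the numbers were not taken to pair the samples. That low value was of number 3, which holds cKO replicate 3, so it cannot settle whether the samples were paired. Whether the numbers mark a batch is unknown. With the replicate number as a block, 0 members had an unadjusted p-value under 0.05, beside 8.17% of all genes. In that fit the log2 fold change of Igf2 was 1.38 and the lowest adjusted p-value of a member by edgeR was 0.612, for Mest. The ratios of Igf2 to H19 and of Dlk1 to Meg3 were not run, since H19 and Meg3 were not analysed here. Dlk1 rested on the fewest counts of the members, 42 to 96 in 5 libraries.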

Other observations

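Among the 5 libraries other than cKO replicate 3, Igf2 was highest in WT replicate 1 (28.3 CPM) and lowest in the library labelled WT replicate 2 (17.8 CPM). The summed endothelial and pericyte markers had their highest and lowest values in the same libraries (156 and 108 CPM). So had the microglia and macrophage markers (36.9 and 22.9 CPM) and the cartilage markers (211 and 164 CPM), the latter mostly from Col2a1. No other marker list shared both extremes. Mesenchyme and meninges markers were highest in cKO replicate 2 (70.3 CPM) and lowest in cKO replicate 1 (43.1 CPM). Most of that sum was Prrx1, at 41.7 and 26.1 CPM in the same libraries. Within the list, Foxc1 (2.51 and 0.867 CPM) and Foxd1 (0.691 and 0.186 CPM) did share both extremes with Igf2, on 3 to 40 counts. No other gene of the list did. No test was made over 5 libraries. Ventral forebrain markers summed to 144 to 154 CPM in cKO and to 69.5 to 124 CPM in WT, whereas 0 of the 8 members were fully apart between genotypes.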
